A study of Zea mays with 36 samples.

Results

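Root RNA after nitrogen (N) recovery was set against root RNA before nitrate was withdrawn, to ask which genes were at their starting level and which were not. The comparison used 6 of the 36 libraries of the series, 3 root libraries at 48 h under N recovery (NR) and 3 root libraries at 0 h under normal nitrogen (NN). The members were the genes of the root table with at least 1 TPM (a length-corrected transcript abundance scaled to the same total in each library) in at least 3 of these 6 libraries, which gave 24537 of 43459 genes. All plants were of the maize inbred line B73, grown in hydroponics with sufficient nitrate for 12 days under 16 h light and 8 h dark. The 0 h group had never lost nitrate. The 48 h group had been in nitrate-free solution for 24 h and had then received nitrate again. Per the methods of the study it was taken 24 h after resupply, so that nitrate was present in both groups and the nominal hour of the day was the same. The protocol text in the labels can also be read as 48 h after resupply. Plants of the 48 h group were older, and no library came from plants of that age kept on nitrate throughout, so age and the N treatment cannot be told apart. Each library was a pool of plants, and the roots were a mix of seminal and crown roots, so that in each result fewer cells of a type and less RNA per cell cannot be told apart. Whether the 3 replicates came from separate cultures is not stated, so p-values measure the spread between these libraries.

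Roots take up nitrate through low-affinity transporters of the NRT1/PTR family (NPF) and high-affinity transporters of the NRT2 family, which work with the partner protein NAR2. Nitrate is reduced to nitrite by nitrate reductase and to ammonium by nitrite reductase, which needs siroheme and reduced ferredoxin, and glutamine synthetase (GS) and glutamate synthase (GOGAT) then build ammonium into amino acids. In plants, genes of nitrate reduction are known to be induced by nitrate, and high-affinity transporters are known to be induced under N limitation. Many root genes also follow the circadian clock, in which LHY factors act around dawn and pseudo-response regulators (APRR) and LUX act later in the day.

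The 48 h replicates did not group equally well. On log2(TPM + 1) over the genes tested, 48 h replicates 1 and 3 correlated at 0.977 (a correlation across genes, which are not independent replicates), while replicate 2 correlated with them at 0.957 and 0.94. Replicate 2 correlated with the 3 libraries of 24 h under N deprivation (ND) at 0.958 to 0.975. It lay more than 1 log2 unit from both other replicates in 1119 genes, 599 above them and 520 below, against 78 to 432 genes for each of the other 17 root libraries. The labels place this library in the recovery group, and fitted changes are given with it first and then, where marked, without it. The leaf RNA share, taken as the median ratio to the leaf level over 208 leaf-specific genes, was 0.152%, 0.139% and 0.266% at 0 h and 0.613%, 0.407% and 0.996% at 48 h. The groups did not overlap (two-sided exact permutation test, p = 0.1, the smallest that 3 against 3 libraries allow). The summed level of the 16 leaf marker genes was 103.65 to 124.84 TPM at 0 h and 120.53 to 167.62 TPM at 48 h (exact permutation p = 0.2). At 0 h most of that sum was PEPC6, which was at 56.1 to 84.5 TPM in the 6 libraries and a mean of 62.8 TPM in leaf. In 48 h replicate 3 PEPC6 made up 56.1 of 167.62 TPM. Without PEPC6 the sum was 28.68 to 40.37 TPM at 0 h and 42.94 to 111.48 TPM at 48 h, without overlap (exact permutation p = 0.1, the smallest possible). Of the 10 markers tested none was called (3.67% of all genes tested were), and 6 were above their starting range in each recovery library. Over all genes tested 3797 of 24537 were above it in this way. PPDK2, with a mean of 58.9 TPM in leaf, was at 0 to 0.266 TPM at 0 h and 0.248 to 1.04 TPM at 48 h. The chlorophyll a-b binding protein gene CP29.2, with a mean of 1914 TPM in leaf, was at 1.38 to 2.89 TPM and then at 5.75 to 18.6 TPM. The part of leaf RNA in the results below was not tested. Of the root markers, the nitrate transport gene NAR2.1 was at 6.89 to 22.0 TPM in the 6 libraries, against a mean of 0.0444 TPM in leaf. The genes described as MYB36, an endodermal factor of Arabidopsis, were at 1.27 to 18.2 TPM, against leaf means of 0.0192 to 0.0491 TPM. NRT2.1 and NRT2.2 were at 0.285 and 0.504 TPM in their lowest libraries, above their leaf means of 0.259 and 0.218 TPM. NRT2.5 went the other way, below its leaf mean of 0.452 TPM in all but 48 h replicate 2.

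**Figure D1:**
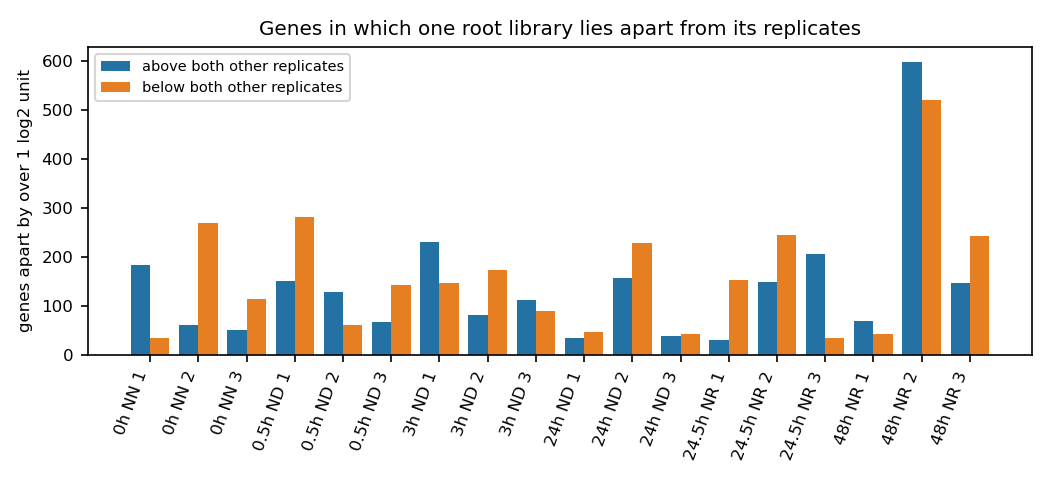
Number of genes (vertical axis) in which a root library lay more than 1 log2 unit above (blue) or below (orange) both other replicates of its group, for the 18 root libraries by time point, treatment and replicate. The 48 h replicate 2 has 599 genes above and 520 below, the highest counts of the 18 libraries in each direction.

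At 48 h most genes were within 1 log2 unit of their starting level on log2(TPM + 1), and most genes called were lower. In limma, with Benjamini-Hochberg adjustment, 901 genes were called at an adjusted p under 0.05 and a change beyond 1 log2 unit, or 3.67% of those tested, with 264 higher (1.08%) and 637 lower (2.6%). For 19307 genes (78.7%) the 95% interval of the change lay within 1 log2 unit in each direction, and for 163 it lay entirely beyond. For the other 5067 it crossed that limit, so that a level near that of 0 h was not shown for them. Whether genes within the limit had left their starting level during deprivation was not part of this comparison. Without 48 h replicate 2, 1273 genes were called (5.19%), 382 higher (1.56%) and 891 lower (3.63%). Of these, 735 were called in both fits, all in the same direction, and the interval lay within 1 log2 unit for 18372 genes (74.9%). The median change over all genes was -0.01 log2 with replicate 2 and -0.04 without it. The libraries of the groups did not overlap in 31.9% of the genes tested, which included 871 of the 901 called. Adjusted p alone, with no limit on size, passed 4167 genes, whereas a test of a change beyond 1 log2 unit (limma treat) passed 9.

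Among the N transporter genes of the study's network, NRT1.1 was lower after recovery, and the NRT2 genes were low, as at 0 h, in 2 of the 3 recovery libraries and far above their starting level in replicate 2. Of 15 listed genes 12 were tested, 1 was called lower and none higher, in both fits. That was 8.33%, against 3.67% of all genes tested and 9.38% of those with a symbol or description. The median was -0.001 log2 against -0.01 for all genes with replicate 2, and -0.23 against -0.04 without it. NRT1.1 (Zm00001eb416090; chromosome 10, 81342252 to 81348329 on NAM-5.0), of the family whose Arabidopsis member transports and senses nitrate, was at 68.1, 101 and 87.0 TPM at 0 h and at 50.8, 50.1 and 28.1 TPM at 48 h. All 3 recovery libraries lay below the 3 starting libraries, and the change was -1.01 log2 (SE 0.19, adjusted p = 0.00302 in limma), or -1.14 without replicate 2. Median-of-ratios scaling gave -0.98, on the other side of the size limit, and leaving out 48 h replicate 3 gave -0.73.

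NRT2.1 (Zm00001eb209670), a high-affinity nitrate transporter, was at 0.733, 1.16 and 1.77 TPM at 0 h and at 0.285, 217 and 1.52 TPM at 48 h. The value of 217 TPM belonged to replicate 2, while replicate 1 lay below the starting range and replicate 3 within it. The change was 2.03 log2 (SE 1.28, adjusted p = 0.30) with replicate 2 and -0.28 (SE 0.61, adjusted p = 0.789) without it, with a 95% interval in the second fit of -1.57 to 1.01. NRT2.2 did not pass the filter and was at 0.504, 0.695 and 0.756 TPM at 0 h and at 0.53, 76.4 and 0.566 TPM at 48 h, again high in replicate 2 alone. NRT2.5, known in other plants from long N starvation, was also below the filter, at 0.0244 to 0.0588 TPM at 0 h and at 0.0198, 1.92 and 0.0693 TPM at 48 h. NAR2.1, the partner of the NRT2 proteins, was at 6.89, 10.4 and 9.52 TPM at 0 h and at 11.5, 22.0 and 7.56 TPM at 48 h, with replicate 2 the highest and the groups overlapping. Its change of 0.46 log2 did not pass (adjusted p = 0.517), nor did that of 0.08 without replicate 2. NRT1.3 was below the filter, at no more than 1.25 TPM in any of the 6 libraries.

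Smaller changes were measured in other NPF genes and in ammonium transport. NPF4.7 was at 16.8, 17.8 and 16.2 TPM at 0 h and at 10.9, 12.1 and 10.1 TPM at 48 h, lower in each recovery library, a change of -0.58 log2 (SE 0.11, adjusted p = 0.00322) and of -0.64 without replicate 2. NPF2.3 changed by -0.54 log2 (adjusted p = 0.0335) and NPF4.9 by 0.76 log2 (adjusted p = 0.0334), each with non-overlapping groups. Without replicate 2 the values were -0.73 (adjusted p = 0.00394) and 0.67 (adjusted p = 0.0788). AMF1-2, of a family known in soybean to move ammonium, was at 32.0, 33.1 and 35.4 TPM at 0 h and at 52.7, 48.1 and 52.0 TPM at 48 h. All recovery libraries lay above the starting ones, and the change was 0.59 log2 (SE 0.094, adjusted p = 0.00116) and 0.63 without replicate 2. With replicate 2 these 4 passed the adjusted p but stayed under the size limit. The ammonium transporter genes AMT1.3, AMT2.3 and AMT2.4 and the genes AMF1-1 and NPF3.6 had changes between -0.06 and 0.03 log2, each with a 95% interval within 1 log2 unit. Without replicate 2 the changes lay between -0.63 and 0.16. For AMT2.3 the small change averaged over 4.26, 16.2 and 3.23 TPM at 48 h, of which the high value was replicate 2, and without that library the change was -0.63 log2 (adjusted p = 0.123).

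**Figure D2:**
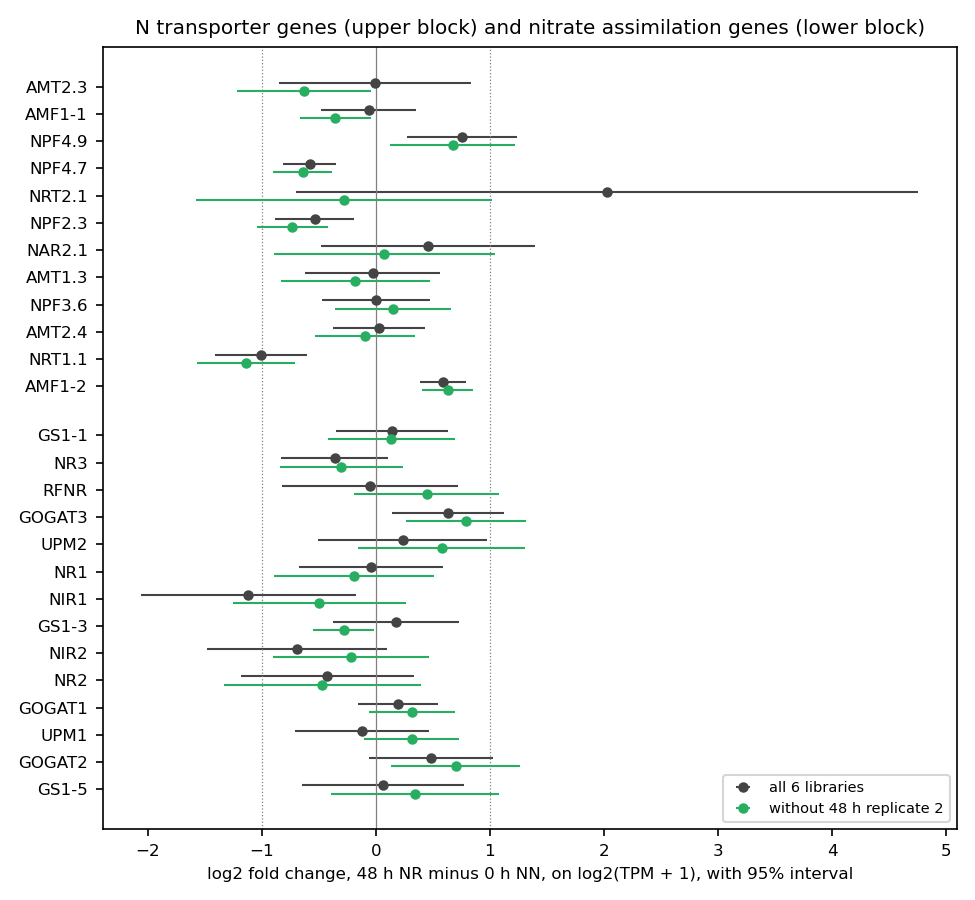
Log2 fold change (48 h NR minus 0 h NN, on log2(TPM + 1)) with its 95% interval for the 12 N transporter genes tested (upper block) and the 14 nitrate assimilation genes tested (lower block), from all 6 libraries (black) and without 48 h replicate 2 (green), with dotted lines at a change of 1 log2 unit in each direction. NRT1.1 lies at -1.01 with an interval below 0, NRT2.1 moves from 2.03 to -0.28 when replicate 2 is left out, and no assimilation gene was called in either fit.

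No nitrate assimilation gene was called, with or without replicate 2, but replicate 2 was low for both nitrite reductase genes and for genes that supply the enzyme. Of 16 listed genes 14 were tested, 2 GOGAT4 genes being under 1 TPM, with a median of 0.01 log2 (0.23 without replicate 2). For 9 of the 14 the 95% interval lay within 1 log2 unit. That was 64.3%, against 78.7% of all genes tested and 59.5% of those with a symbol or description. The share called was 3.67% of all genes tested and 9.38% of those with a symbol or description. NIR1 (Zm00001eb193660; chromosome 4, 183572704 to 183576240), described as a nitrite reductase, was at 52.5, 60.8 and 54.3 TPM at 0 h and at 53.7, 10.1 and 28.7 TPM at 48 h. Recovery replicate 1 was within the starting range and the other recovery libraries below it. The change was -1.12 log2 (SE 0.44, 95% interval -2.05 to -0.17, adjusted p = 0.0953), and -0.49 without replicate 2. NIR2, the other nitrite reductase gene, was at 71.2, 101 and 89.4 TPM at 0 h and at 101, 26.9 and 54.6 TPM at 48 h. Its lowest value was again replicate 2, and the change was -0.69 log2 (adjusted p = 0.218), or -0.21 without that library.

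The genes that supply nitrite reductase had the same low library. RFNR, a root ferredoxin-NADP reductase that provides reduced ferredoxin, was at 361, 431 and 414 TPM at 0 h and at 578, 194 and 517 TPM at 48 h. UPM1, a methyltransferase of siroheme synthesis, was at 25.1, 24.2 and 23.3 TPM at 0 h and at 29.8, 11.7 and 30.8 TPM at 48 h. In both genes replicates 1 and 3 were above all starting libraries and replicate 2 below them, and the fitted changes were -0.05 and -0.12 log2 with replicate 2 and 0.45 and 0.31 without it, none of which passed. Of the nitrate reductase genes, NR1 changed by -0.04 log2, NR2 by -0.42 and NR3 by -0.36, with adjusted p of 0.284 to 0.941, and by -0.19, -0.47 and -0.30 without replicate 2. NR2 was at 28.6, 33.6 and 28.0 TPM at 0 h and at 24.0, 23.6 and 19.0 TPM at 48 h, lower in each recovery library. In NR1 replicate 2 was the highest recovery library, at 22.1 TPM beside 20.3 and 12.6 TPM, and in NR2 it lay between the others.

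Of the ammonium assimilation steps, GOGAT3 had the largest change. It was at 50.0, 67.3 and 66.4 TPM at 0 h and at 98.8, 75.7 and 113 TPM at 48 h, higher in each recovery library, a change of 0.63 log2 (adjusted p = 0.072), and of 0.79 (adjusted p = 0.0358) without replicate 2. GOGAT2 and GOGAT1 had changes of 0.48 and 0.20 log2, and of 0.70 and 0.32 without replicate 2, that did not pass. Of the glutamine synthetase genes, GS1-3 was at 264 to 303 TPM at 0 h and at 253, 621 and 222 TPM at 48 h, with replicate 2 far above the rest. Its change was 0.18 log2 with that library and -0.28 without it. GS1-1, the most abundant of them by mean, was at 547 to 734 TPM at 0 h and 665 to 800 TPM at 48 h, overlapping groups with a change of 0.15 log2, or 0.14 without replicate 2.

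Among the other process lists of the network, 2 genes were called, both lower, and further calls appeared when replicate 2 was left out. That was 25% of 4 carbon metabolism genes and 16.7% of 6 stress response genes, against 9.38% of genes with a symbol or description. PGM (Zm00001eb194260, on the carbon metabolism list) was at 145, 148 and 139 TPM at 0 h and at 78.9, 73.7 and 61.1 TPM at 48 h, without overlap, a change of -1.01 log2 (SE 0.21, adjusted p = 0.0052). Median-of-ratios scaling brought it to -0.99, just under the size limit. SAT2 (on the stress response list) was at 71.4, 96.6 and 74.7 TPM at 0 h and at 27.5, 39.1 and 35.0 TPM at 48 h, a change of -1.23 log2 (SE 0.26, adjusted p = 0.0052). All 3 recovery libraries of both genes lay below all starting libraries, and both were called without replicate 2 as well, at -1.04 and -1.34 log2.

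Of the 8 amino acid metabolism genes none was called (median 0.06 log2), and without replicate 2 AlaAT1 alone was (median 0.08). The asparagine synthetase gene ASN1 was at 103 to 112 TPM at 0 h and 115 to 131 TPM at 48 h (adjusted p = 0.0908, and 0.165 without replicate 2). The alanine aminotransferase gene AlaAT3 was at 90.8, 96.4 and 101 TPM at 0 h and at 73.04, 58.5 and 62.6 TPM at 48 h, lower in each recovery library, a change of -0.57 log2 (SE 0.086, adjusted p = 0.000957) and of -0.50 without replicate 2, under the size limit. AlaAT1, of the same enzyme family, was at 99.6, 89.4 and 80.5 TPM at 0 h and at 174, 49.8 and 416 TPM at 48 h. Replicates 1 and 3 were above and replicate 2 below all starting libraries, so the change was 0.77 log2 (adjusted p = 0.296) with replicate 2 and 1.58 (adjusted p = 0.00321) without it. G6PD1, a glucose-6-phosphate dehydrogenase gene, was split in the same way at 298, 63.3 and 311 TPM against 200 to 211 TPM at 0 h, with changes of -0.18 log2 and, without replicate 2, 0.57 (adjusted p = 0.0371). GLB1 was at 759, 696 and 532 TPM at 0 h and at 1320, 103 and 1829 TPM at 48 h, and its change went from -0.06 log2 to 1.25 (adjusted p = 0.0268) without replicate 2. OSM3 was at 19.0, 6.53 and 23.0 TPM at 0 h and at 70.7, 23.8 and 42.2 TPM at 48 h, above in each recovery library, with adjusted p = 0.0502 and, without replicate 2, 0.02. Of 7 hormone genes tested none was called (median -0.32 log2, and -0.04 without replicate 2). Among them the auxin receptor gene TIR1 changed by 0.49 log2 (adjusted p = 0.0124), and ACS7, of the ethylene synthesis genes, by -0.79 (adjusted p = 0.0303), and without replicate 2 by 0.49 (adjusted p = 0.0213) and -0.66 (adjusted p = 0.0837). All 7 N linked genes had their 95% interval within 1 log2 unit in both fits, against 78.7% of all genes tested, and 74.9% without replicate 2.

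Most clock genes tested differed from their starting levels, although both groups carry the same nominal hour. The study's tables describe 10 genes as LHY, REVEILLE, APRR or LUX, of which 9 were tested, 3 were called higher and 3 lower, and 1 had its interval within 1 log2 unit. The same 6 genes were called without replicate 2. These descriptions come from the study's tables of genes that responded early after withdrawal, and 9.38% of the 1375 tested genes with any name or description were called, against 3.67% of all genes tested, so the lists made from descriptions should be read against 9.38%. The LHY genes, dawn-phased repressors of the clock, all fell. Zm00001eb415770 was at 43.2, 43.7 and 40.3 TPM at 0 h and at 13.9, 19.2 and 10.5 TPM at 48 h, a change of -1.52 log2 (SE 0.24, adjusted p = 0.000999), or -1.73 without replicate 2. Zm00001eb415760 was at 64.5, 47.6 and 59.4 TPM and then at 21.5, 27.6 and 19.2 TPM (-1.29 log2, adjusted p = 0.00174, or -1.43 without replicate 2). MYBR79 (Zm00001eb172450; chromosome 4, 34452072 to 34485595), also described as LHY, was at 38.6, 32.0 and 31.2 TPM and then at 12.5, 10.7 and 15.3 TPM (-1.35 log2, adjusted p = 0.00293, or -1.23 without replicate 2). In all 3 genes each recovery library, replicate 2 included, lay below each starting library.

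The pseudo-response regulators and LUX moved the other way. The APRR1 gene Zm00001eb247330 was at 4.86, 9.81 and 9.36 TPM at 0 h and at 24.9, 28.9 and 25.9 TPM at 48 h, a change of 1.66 log2 (SE 0.18, adjusted p = 0.000141), or 1.60 without replicate 2. APRR5 (Zm00001eb103490, also named PRR95) was at 10.2, 13.9 and 17 TPM and then at 33.1, 31.7 and 47.4 TPM (1.39 log2, adjusted p = 0.000489, or 1.49 without replicate 2). LUX (Zm00001eb362240), a part of the evening complex in Arabidopsis, was low in both groups, at 0.24, 0.486 and 0.925 TPM and then at 1.87, 3.9 and 2.4 TPM (1.25 log2, adjusted p = 0.00276, or 1.03 without replicate 2). No library of these genes overlapped between the groups. A further APRR1 gene, Orphan90, and APRR9 had changes of 0.99 and 0.65 log2 that passed the adjusted p (0.00244 and 0.0071) but not the size limit, and REVEILLE 7 had a change of -0.73 log2 that did not pass (adjusted p = 0.0919). Without replicate 2 these were 0.87, 0.70 and -0.93, and REVEILLE 7 then passed the adjusted p (0.0466).

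Both genes described as Adagio protein 3, whose Arabidopsis counterpart FKF1 is a blue-light receptor and F-box protein that controls flowering time, had among the largest rises of any named gene. Zm00001eb201580 was at 0.572, 0.786 and 1.32 TPM at 0 h and at 7.3, 11.3 and 9.03 TPM at 48 h, a change of 2.43 log2 (SE 0.18, adjusted p = 1.69e-05), and was the only gene with a name or description to pass limma treat against 1 log2 unit (adjusted p = 0.0114). Zm00001eb113780 was at 3.32, 4.83 and 6.22 TPM and then at 25.3, 18.1 and 36.4 TPM (2.23 log2, adjusted p = 9.67e-05). Without replicate 2 the changes were 2.29 and 2.47 log2. The 2 genes were grouped with 4 CONSTANS-LIKE zinc finger genes after their values had been seen, of which none was called with replicate 2 and Zm00001eb380990 was without it (1.32 log2, adjusted p = 0.000542).

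**Figure D3:**
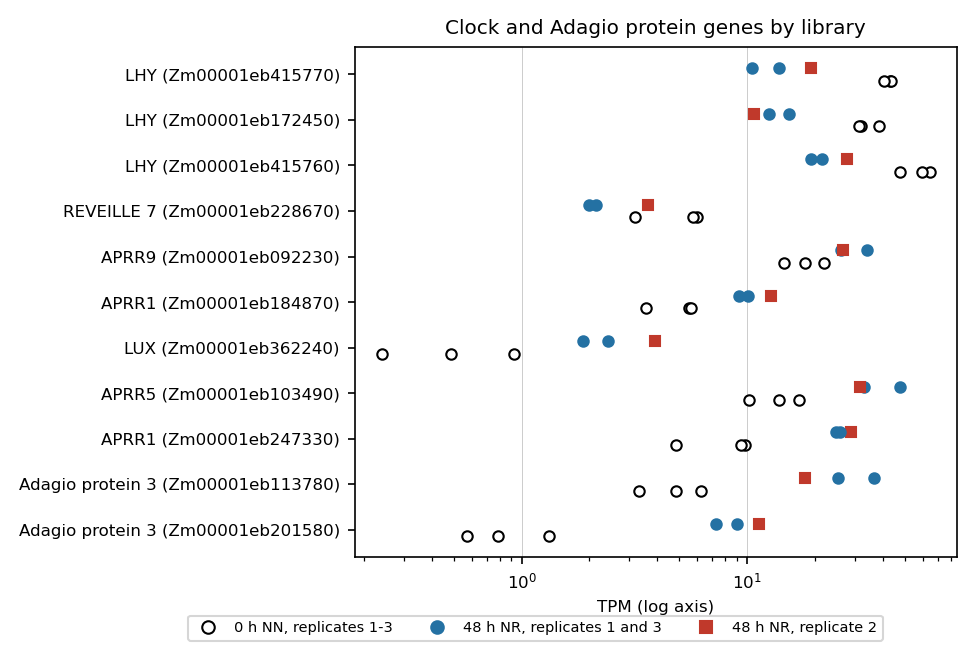
TPM per library (log axis) for the 9 clock genes tested and the 2 Adagio protein 3 genes, ordered by log2 fold change, with 0 h NN libraries as open circles, 48 h NR replicates 1 and 3 as blue circles and replicate 2 as a red square. LHY genes lie to the left of their 0 h libraries at 48 h and APRR1, APRR5, LUX and Adagio protein 3 genes to the right, with replicate 2 among or beside the other recovery libraries.

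At 24 h under N deprivation, which has the same nominal hour as both groups, the group mean was nearer to that of 48 h than to that of 0 h in 10 of these 11 genes. The exception was APRR9, at 18.2, 19.8 and 28.9 TPM at 0, 24 and 48 h. The 24 h mean was 10.8 TPM for LHY Zm00001eb415770, against 42.4 TPM at 0 h and 14.5 TPM at 48 h. For APRR1 Zm00001eb247330 it was 27 TPM, against 8.01 TPM at 0 h and 26.6 TPM at 48 h. For Adagio protein 3 Zm00001eb201580 it was 9.82 TPM, against 0.893 TPM at 0 h and 9.21 TPM at 48 h. In 9 of the 11 genes the 3 libraries of 24 h did not overlap those of 0 h, and in APRR9 and REVEILLE 7 they did. Neither of these counts was made over all genes tested. The 11 include genes called between 0 h and 48 h, so neither count is a test. Between 48 h and 0 h the libraries did not overlap in 31.9% of all genes tested. In leaf, LHY Zm00001eb415770 was at 473, 478 and 507 TPM at 0 h and at 201, 418 and 151 TPM at 48 h. APRR1 Zm00001eb247330 was at 1.28, 0.942 and 1.19 TPM in leaf and then at 7.09, 6.07 and 20.4 TPM, with no overlap in either gene. REVEILLE 7 did overlap in leaf, at 11.8, 11.2 and 14.9 TPM and then at 15.5, 17.9 and 5.15 TPM. The labels give the time since withdrawal and not the hour at which each library was harvested, so the part of harvest hour in these differences was not tested.

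**Figure D4:**
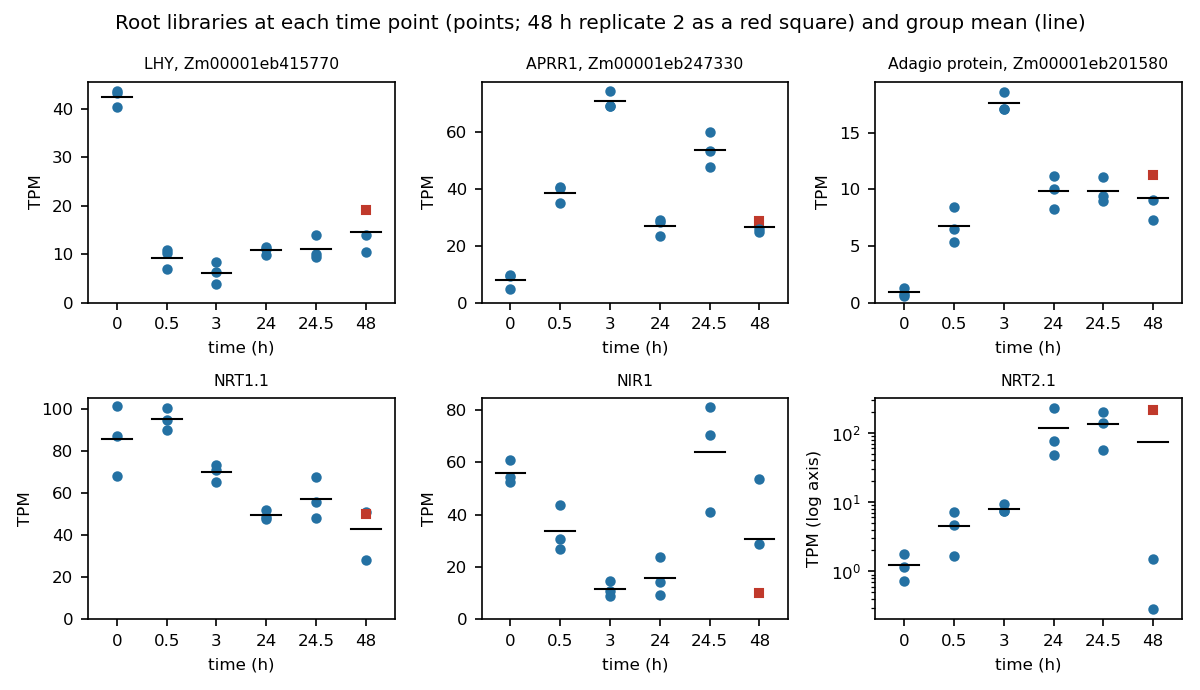
TPM of each root library (points, with 48 h replicate 2 as a red square) and the group mean (line) at 0 h NN, 0.5, 3 and 24 h ND and 24.5 and 48 h NR for LHY, APRR1, Adagio protein 3, NRT1.1, NIR1 and NRT2.1 (log axis for NRT2.1). For LHY the 0 h group mean of 42.4 TPM stands above the means at all later time points, and for NRT2.1 replicate 2 at 48 h lies at 217 TPM beside libraries at 0.285 and 1.52 TPM.

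Genes linked to phosphate by their description were lower after recovery. This group of 8 tested genes was made after the values had been seen, so its count describes it and tests nothing. SPX proteins are phosphate sensors that hold back the phosphate starvation response in Arabidopsis and rice, and purple acid phosphatases release phosphate from organic compounds. Of the 8, 5 were called lower (62.5%, against 9.38% for genes with a description), none higher, and in 7 all recovery libraries lay below all starting libraries. The latter held for 4034 of all 24537 genes tested, and for 306 of the 1375 with a symbol or description. SPX domain-containing protein 3 (Zm00001eb048730) was at 16.6, 22.3 and 13.1 TPM at 0 h and at 0.691, 0.171 and 1.73 TPM at 48 h, a change of -3.36 log2 (SE 0.62, adjusted p = 0.00262), and it was -3.07 without replicate 2. SPX domain-containing protein 1 (Zm00001eb205600) was at 20.3, 43.8 and 25.1 TPM and then at 4.01, 7.24 and 9.8 TPM (-1.94 log2, adjusted p = 0.00657, or -1.99 without replicate 2). Purple acid phosphatase 15 (Zm00001eb064450) was at 72.9, 117 and 102 TPM and then at 28.7, 11.4 and 21.9 TPM (-2.25 log2, adjusted p = 0.00229, or -1.89 without replicate 2).

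In 2 other phosphatase genes the call rested on replicate 2. Purple acid phosphatase 17 (Zm00001eb010130) was at 216, 297 and 211 TPM at 0 h and at 58.5, 41.5 and 113 TPM at 48 h, with adjusted p = 0.0447 with that library and 0.115 without it. For the inactive purple acid phosphatase 16 (Zm00001eb141530), at 17.4, 27.7 and 20.3 TPM and then at 7.32, 4.36 and 7.71 TPM, it went from 0.0187 to 0.0518. Without replicate 2 the number of calls was 3 of 8. A second SPX3 gene (Zm00001eb162710), the most abundant of the 8, was at 378, 547 and 430 TPM at 0 h and at 132, 77.0 and 214 TPM at 48 h, and its change of -1.77 log2 missed the threshold (adjusted p = 0.0543, and 0.146 without replicate 2).

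Of the 300 network transcription factors 256 were tested, and 4 were higher and 15 lower at 48 h. That was 7.42%, against 3.67% of all genes tested and 9.38% of those with a symbol or description. Without replicate 2, 4 were higher and 21 lower. The median was -0.14 log2 against -0.01 for all genes, and -0.22 against -0.04 without replicate 2. Of 38 EREB genes, encoding ethylene-responsive element binding factors, 1 was higher and 4 lower. Among 28 NAC genes 1 was higher and 3 lower, among 30 bZIP genes 1 was higher and 1 lower, among 16 MYB genes 2 were lower and among 15 WRKY genes 1. None of 8 ARF (auxin response factor), 5 HSF (heat stress factor) and 5 NLP genes was called. Of the 111 genes of other families 1 was higher and 4 lower. The share called was 13.2% of EREB, 14.3% of NAC, 6.67% of bZIP, 12.5% of MYB, 6.67% of WRKY and 4.5% of other genes. Without replicate 2 the counts were 2 higher and 3 lower for EREB, 1 and 5 for NAC, 0 and 2 for bZIP and for MYB, 1 and 1 for WRKY, 0 and 1 for ARF and 0 and 7 for other families, and none of the HSF and NLP genes was called.

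EREB115 (Zm00001eb318910) had the largest change of the network factors, at 48.9, 32.6 and 20.3 TPM at 0 h and at 7.79, 1.32 and 2.13 TPM at 48 h (-3.04 log2, SE 0.51, adjusted p = 0.00149, or -2.65 without replicate 2). The next EREB genes to fall were EREB97 (-1.78 log2, and -1.71 without replicate 2) and EREB36 (-1.67 and -1.64 log2), the latter at 6.62, 1.14 and 1.24 TPM and then at 0.0908, 0 and 0.0346 TPM. The NAC genes NAC5 and NAC49, both described as NAC domain-containing protein 2, were close to each other in level and change. NAC5 was at 30.6, 26.0 and 30.5 TPM and then at 12.1, 10.6 and 9.91 TPM (-1.34 log2, adjusted p = 0.000385), and NAC49 changed by -1.31 log2 (adjusted p = 0.00048). Without replicate 2 the changes were -1.33 and -1.25 log2. Replicate 2 lay beside the other recovery libraries in both. NAC86 was at 11.5, 11.5 and 10.03 TPM and then at 3.89, 8.02 and 1.55 TPM, with replicate 2 nearest to the starting level and changes of -1.31 log2 with it and -1.76 without it. Further factors called lower were bHLH20, C3H9, MYB40, MYB50, WRKY94, GATA28, EREB205 and bZIP60, with changes between -1.69 and -1.04 log2, besides the LHY gene MYBR79. All but EREB205 (-0.91 log2) were called without replicate 2 as well.

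The factors called higher were Orphan207 (1.45 log2), bZIP111 (1.22 log2), NAC24 (1.09 log2) and EREB122 (1.09 log2), of which NAC24 (1.06) and EREB122 (1.07) were also called without replicate 2. bZIP111 was then at 0.92 log2, under the size limit. NAC24 was at 9.72, 10.6 and 10.6 TPM at 0 h and at 24.9, 24.4 and 20.3 TPM at 48 h, with small spread in both groups. Orphan207 was at 49.4, 42.5 and 45.4 TPM and then at 128, 154 and 104 TPM, and missed the threshold without replicate 2 (1.31 log2, adjusted p = 0.0815). NLP genes encode NIN-like proteins, of which some are nitrate sensors and activators of nitrate-induced genes in Arabidopsis. Of these, NLP17 was at 9.96, 14.2 and 11.5 TPM at 0 h and at 6.36, 28.8 and 7.34 TPM at 48 h, and NLP13 was at 8.88, 14.9 and 11.7 TPM and then at 7.51, 45.6 and 10.5 TPM. In both, replicate 2 lay above all other libraries of the comparison. The medians of the 5 NLP genes were -0.06 log2 with replicate 2 and -0.43 without it.

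Of 14 genes described as peroxidase, laccase or phenylalanine ammonia-lyase, enzymes of lignin and phenylpropanoid synthesis, 4 were lower and none higher (28.6%, against 9.38% for genes with a description). Phenylalanine ammonia-lyase 1 (Zm00001eb050970), which makes the first step of the pathway, was at 72.6, 104 and 123 TPM at 0 h and at 38.7, 49.5 and 17.7 TPM at 48 h (-1.56 log2, adjusted p = 0.00393, or -1.85 without replicate 2). The other 3 were described as Laccase-17, an enzyme that polymerises lignin in Arabidopsis, and changed by -1.51, -1.37 and -1.32 log2, or by -1.55, -1.71 and -1.40 without replicate 2. The most abundant of them, Zm00001eb148280, was at 33.1, 26.1 and 22.8 TPM and then at 10.8, 16.5 and 5.19 TPM. Their groups did not overlap, and the count was 4 without replicate 2 as well.

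Of 5 aquaporin genes, which encode water channels, 2 were called higher and 1 lower (60%, against 9.38% for genes with a description). A plasma membrane intrinsic protein gene (Zm00001eb077130) was at 714, 639 and 814 TPM at 0 h and at 289, 497 and 240.4 TPM at 48 h (-1.14 log2, adjusted p = 0.00318, or -1.45 without replicate 2). The 2 other plasma membrane genes were lower in each recovery library too, by -0.91 and -0.79 log2 (adjusted p = 0.000957 and 0.00334) and by -0.95 and -0.83 without replicate 2, under the size limit. The tonoplast gene TIP4-1 (Zm00001eb284350) was at 1.74, 1.93 and 5.32 TPM and then at 14.2, 15.7 and 15.2 TPM (2.11 log2, adjusted p = 0.000374, or 2.08 without replicate 2). NIP1-2 (Zm00001eb239170), of the nodulin-like subfamily, was at 3.36, 1.63 and 6.24 TPM and then at 52.0, 3.89 and 62.7 TPM. Replicate 2 was within the starting range, and the change was 2.55 log2 (adjusted p = 0.025) with it and 3.74 (adjusted p = 0.000323) without it.

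Of 7 sugar transport genes 1 was called higher and 2 lower (42.9%, against 9.38% for genes with a description). The 2 lower ones were SWEET genes, which encode sugar exporters. SWEET13b (Zm00001eb408900) was at 41.2, 37.3 and 41.4 TPM at 0 h and at 10.4, 34.0 and 14.2 TPM at 48 h (-1.17 log2, adjusted p = 0.0237, or -1.63 without replicate 2), with replicate 2 nearest to the starting level. SWEET2 (Zm00001eb155660) changed by -1.30 log2 (adjusted p = 0.00349), and Sugar transporter ERD6-like 6 by 1.12 log2 (adjusted p = 0.0202) from a level listed at 0 in 2 of the 3 starting libraries. Without replicate 2, 4 were lower and none higher, with SWEET2 at -1.28 and ERD6-like 6 at 0.96 log2. Of 27 heat shock and chaperone genes tested 2 were higher and 2 lower (14.8%, against 9.38% for genes with a description). Without replicate 2 the counts were 2 and 5. Called genes included the 22 kDa heat shock protein gene Zm00001eb112330 (-1.35 log2, and -1.61 without replicate 2) and the DnaJ gene ERDJ3B Zm00001eb161610 (1.32 and 1.62 log2).

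Among 17 genes related to nitrate by their description 1 was called (5.88%, against 9.38% for genes with a description). This was a gene described as nitrate reductase (Zm00001eb193390) outside the network list, at 2.03, 2.93 and 1.01 TPM at 0 h and at 0.219, 0.0783 and 0.32 TPM at 48 h (-1.26 log2, adjusted p = 0.00136, or -1.18 without replicate 2). Each recovery library lay below each starting library, at a low level in both groups. Non-symbiotic hemoglobin 1 (Zm00001eb293010), which scavenges nitric oxide in plants, was at 136, 107 and 85.7 TPM and then at 157, 26.9 and 196 TPM. Probable ferredoxin-4 (Zm00001eb348290) was at 21.0, 24.2 and 26.0 TPM and then at 25.7, 2.22 and 23.5 TPM. In both genes replicate 2 lay below all other libraries, and neither change passed with or without it (adjusted p = 0.0502 and 0.909 without it). None of the 14 germin-like genes, the 3 jasmonate genes and the 3 genes described as MYB36, an endodermal factor of Arabidopsis, was called in either fit.

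Of the 901 genes called, 713 had non-overlapping groups and at least 5 TPM in the higher group, and 108 of these had a symbol or a description. Among the 10 with the largest rises were enzymes of central metabolism. Thiamine thiazole synthase (Zm00001eb356910), which makes the thiazole part of vitamin B1, led them at 0.902, 1.96 and 1.14 TPM at 0 h and at 11.3, 19.0 and 12.1 TPM at 48 h (2.69 log2, SE 0.37, adjusted p = 0.000547, or 2.47 without replicate 2). Phosphoenolpyruvate carboxykinase (Zm00001eb011080), of gluconeogenesis, was at 2.95, 4.96 and 6.0 TPM and then at 23.3, 17.8 and 26.6 TPM (2.09 log2, adjusted p = 0.0162, or 2.24 without replicate 2). Pyruvate, phosphate dikinase 1 (Zm00001eb287770; chromosome 6, 157076348 to 157086887), which makes phosphoenolpyruvate from pyruvate, was at 14.4, 26.7 and 27.3 TPM and then at 104, 41.7 and 152 TPM (1.94 log2, adjusted p = 0.0352, or 2.46 without replicate 2). In the last of these replicate 2 was the lowest of the recovery libraries but still above the starting ones. For phosphoenolpyruvate carboxykinase and pyruvate, phosphate dikinase 1 the recovery libraries ranked as in leaf RNA share (0.613%, 0.407% and 0.996%). Mitochondrial cysteine synthase, CCG-binding protein 1, APRR5 Zm00001eb103490 and Adagio protein 3 Zm00001eb113780, given above or below, ranked in the same way. For thiamine thiazole synthase, ATL41, TIP4-1 and Adagio protein 3 Zm00001eb201580 the recovery libraries did not. This rank also puts replicate 2 lowest. The part of leaf RNA in these rises was not tested.

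Mitochondrial cysteine synthase (Zm00001eb376890) was at 7.99, 7.15 and 8.06 TPM at 0 h and at 33.4, 17.9 and 70.5 TPM at 48 h (2.04 log2, adjusted p = 0.00112, or 2.51 without replicate 2). The ubiquitin ligase gene ATL41 (Zm00001eb282260) was at 12.1, 10.4 and 11.5 TPM and then at 73.3, 27.8 and 45.3 TPM (1.91 log2, adjusted p = 0.00141, or 2.25 without replicate 2). Both kept clear of their starting range in each recovery library. ABC transporter A family member 8 (1.86 log2, adjusted p = 0.0493) and Zinc finger protein 4 (2.11 log2, adjusted p = 0.0415) were nearest to the threshold, and Zinc finger protein 4 missed the threshold without replicate 2 (1.78 log2, adjusted p = 0.106), where ABC transporter A family member 8 was at 2.12 (adjusted p = 0.042). TIP4-1 and both Adagio protein 3 genes, described above, complete the 10.

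**Figure D5:**
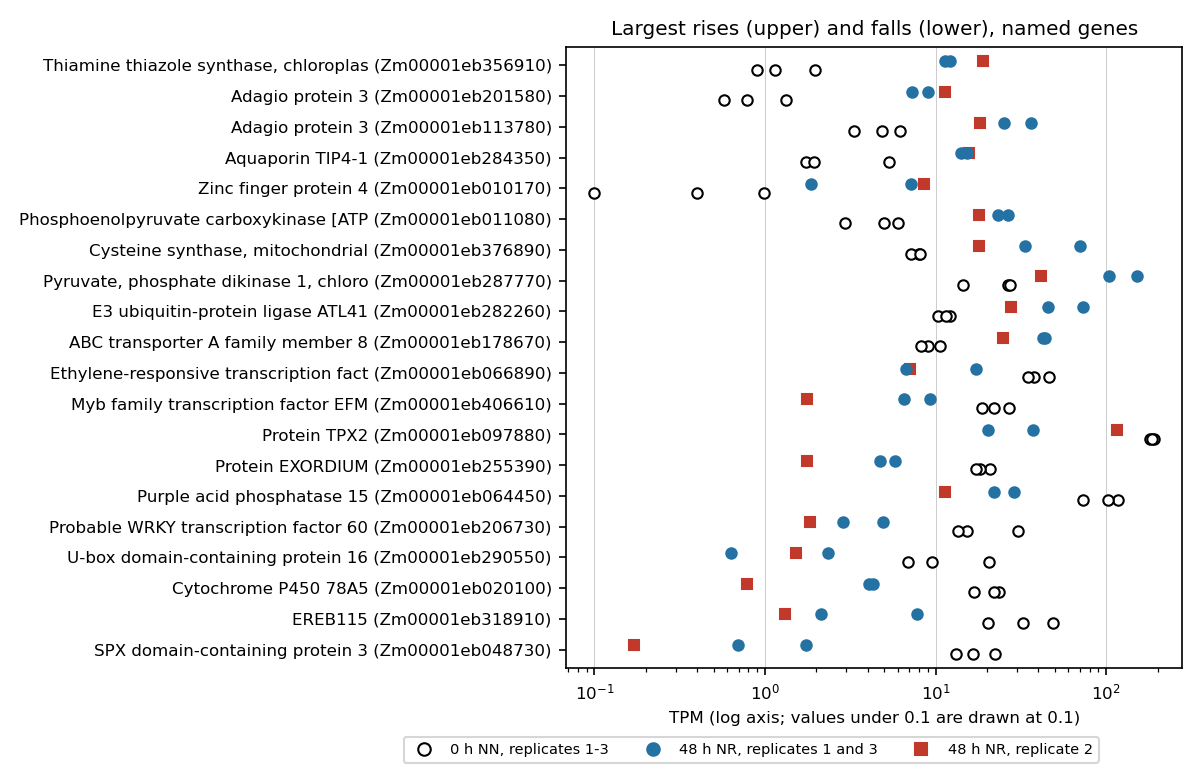
TPM per library (log axis, values under 0.1 drawn at 0.1) for the 10 largest rises (upper) and 10 largest falls (lower) among called genes with a symbol or description, with 0 h NN libraries as open circles, 48 h NR replicates 1 and 3 as blue circles and replicate 2 as a red square. Each gene has its 48 h libraries on one side of its 0 h libraries, from 2.69 log2 for thiamine thiazole synthase to -3.36 for SPX domain-containing protein 3.

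Of the 10 largest falls, SPX domain-containing protein 3, EREB115 and purple acid phosphatase 15 are described above. Cytochrome P450 78A5 (Zm00001eb020100), whose Arabidopsis counterpart promotes organ growth, was at 23.5, 16.8 and 22.1 TPM at 0 h and at 4.31, 0.784 and 4.08 TPM at 48 h (-2.57 log2, SE 0.38, adjusted p = 0.000834, or -2.06 without replicate 2). Protein EXORDIUM (Zm00001eb255390), linked to cell expansion in Arabidopsis, was at 20.8, 18.3 and 17.3 TPM and then at 5.76, 1.76 and 4.72 TPM (-2.06 log2, adjusted p = 0.000314, or -1.67 without replicate 2). In both genes replicate 2 was the lowest library. The spindle protein gene TPX2 (Zm00001eb097880) was at 191, 179.9 and 184 TPM and then at 37.2, 116 and 20.3 TPM (-2.03 log2, adjusted p = 0.0039, or -2.70 without replicate 2), with replicate 2 the highest of the recovery libraries. Regulatory genes made up much of the rest, namely Probable WRKY transcription factor 60 (-2.29 log2), Ethylene-responsive transcription factor 3 (Zm00001eb066890, -1.96 log2), the Myb factor EFM (-1.96 log2) and U-box domain-containing protein 16 (-2.34 log2). Without replicate 2 these were at -2.04, -1.77, -1.40 and -2.38 log2, each still called.

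Leaving out replicate 2 brought further named genes into the lists of largest changes. Among the rises these were NIP1-2, CCG-binding protein 1 and an ethylene-responsive transcription factor (Zm00001eb006160). CCG-binding protein 1 (Zm00001eb214110) was at 35.3, 30.1 and 30.7 TPM at 0 h and at 147, 42.3 and 247 TPM at 48 h, called in both fits (1.83 and 2.54 log2). The ethylene-responsive factor was at 8.71, 7.55 and 4.45 TPM and then at 28.7, 2.68 and 75.5 TPM, and was called only without replicate 2 (2.64 log2, adjusted p = 0.00656). Among the falls these were SPX domain-containing protein 1, the anion channel gene SLAH1 (Zm00001eb118730, -2.08 log2), a mediator subunit 37 gene (Zm00001eb368000, -2.01 log2) and the protease inhibitor gene CI-1B (Zm00001eb267030). The CI-1B gene was at 287, 375 and 434 TPM and then at 136, 237 and 37.1 TPM (-2.32 log2, adjusted p = 0.0131 without replicate 2 and 0.0533 with it).

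Of called, non-overlapping genes with at least 5 TPM in the higher group to which the study's tables give no name, the 2 largest falls and the 2 largest rises are given here. Zm00001eb137370 was at 79.5, 138 and 114 TPM at 0 h and at 2.27, 3.93 and 1.81 TPM at 48 h, a change of -4.93 log2 (SE 0.59, adjusted p = 0.000326), or -5.17 without replicate 2. Zm00001eb016270 was at 23.3, 52.9 and 20.8 TPM and then at 0.327, 0 and 0.171 TPM (-4.72 log2, adjusted p = 0.00134, or -4.62 without replicate 2). Zm00001eb263190 was listed at 0 in each 0 h library and at 7.7, 6.61 and 8.14 TPM at 48 h (adjusted p = 0.017), and Zm00001eb414560 was at 0, 1.16 and 4.77 TPM and then at 24.3, 8.83 and 20.3 TPM (2.91 log2, adjusted p = 0.0157, or 3.32 without replicate 2). In each of these 4 genes all recovery libraries lay on one side of all starting libraries, and each was called without replicate 2 as well.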

How the data were processed

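RNA-seq libraries of B73 roots were compared, 3 at 48 h NR with 3 at 0 h NN, and groups came from the sample titles. The deposited values are TPM per gene, which the authors computed with STAR alignment to the B73 version 5 genome and StringTie at default settings, per the methods of the study. The submitters' processing notes also name Trimmomatic and DESeq2, which the authors used for differential expression. Labels and methods differ on the nutrient solution, kit, sequencer and plant pool size. Read depth cannot be recovered from TPM and is unknown, so counting intervals and detection limits are left out.

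Values were analysed as log2(TPM + 1), which understates changes of low genes, in limma 3.58.1 (R 4.3.3) with a mean-variance trend and all 18 root libraries in a single fit (17 without 48 h replicate 2). Two-sided p-values were adjusted by Benjamini-Hochberg over all 24537 genes, and the script was tested on simulated data. TPM are not counts, so no count model was fitted. Intervals are 95% intervals of the fitted change. The members and lists were chosen with earlier results of these data known, and lists are given by counts and medians with no set test. Genes named were the network genes and description groups, the 10 largest rises and falls among called, non-overlapping named genes with a mean of 5 TPM or more in the higher group (with and without replicate 2), and the 2 largest rises and falls without a name. Phosphate genes, Adagio and CONSTANS-LIKE genes, and genes set out for their split between replicates were chosen after their values were seen. Symbols and descriptions are those of the study's tables, and cover 1619 of the 43459 identifiers. Older identifiers in those tables were found for 556 identifiers and gave 435 a RefSeq location on NAM-5.0. Alternatives were pseudocounts of 0.1 and 5, scaling, filters, a replicate block, a fit of the 6 libraries alone, a robust prior, other thresholds and leaving out each library.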

Additional observations from a re-analysis of the deposited data

How the results depend on the processing

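The number of genes called was 901, and stayed within 625 to 1193 under 9 alternatives: a pseudocount of 0.1 (1193), the replicate block (892, of which 263 higher), median-of-ratios scaling (863), quantile normalization (858), a fit with only the 6 libraries (639), no filter on low values (852), a mean of at least 5 TPM (625), the filter over all 18 root libraries (906) and a robust prior (873). It was 355 (99 higher) with a pseudocount of 5, 4167 by adjusted p alone and 9 with limma treat, by construction for the last 2. Leaving out each library in turn gave 693 to 1273 calls. The interval then lay within 1 log2 unit for 18275 to 18757 genes, against 19307. The number of genes within that limit was 16835 with a pseudocount of 0.1 and 22616 with a pseudocount of 5. In the fit without 48 h replicate 2, 1273 calls became 547 with a pseudocount of 5, an alternative added after seeing the data, as were the other alternatives of that fit and the leave-one-out values of leaf RNA.

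Some list medians moved by more than the spread between replicates when a library was left out: hormone genes ranged from -0.49 to 0.13 log2, carbon metabolism from -0.39 to 0.13, stress response from -0.246 to 0.001, bZIP from -0.285 to 0.008, EREB from -0.472 to -0.067 and MYB factors from -0.288 to 0.084. GLB1 ranged from -0.82 log2 without 48 h replicate 3 to 1.25 without 48 h replicate 2, where its direction reversed. Of 71 named genes called, 28 kept their call in all alternatives run for them and 43 lost it in at least 1; the cause was not tested. Deviations of same-numbered libraries correlated at 0.114, 0.085 and 0.013 for replicates 1, 2 and 3. Each 48 h library correlated best with the 0 h library of its own number. From the other side, 0 h replicate 3 correlated best with 48 h replicate 1 (0.046). These values are small and do not settle whether same-numbered libraries share more than their number. Of the 892 calls of the replicate block, 869 were among the 901. The unknown depth limits what can be said of genes near 1 TPM.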

Other observations

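Genes that were split between recovery replicates were looked at after their values had been seen, and their values are given without a test. Of the described or named genes, 48 h replicate 2 lay more than 1 log2 unit above both other replicates in 55 and below both in 66. GRAS9, a network transcription factor, was at 4.92, 10.1 and 8.93 TPM at 0 h and at 1.59, 9.66 and 1.2 TPM at 48 h, so that replicate 2 was within the starting range and the other replicates below it. MYB8 was at 10.7, 14.1 and 8.98 TPM at 0 h and at 9.45, 34.0 and 5.72 TPM at 48 h, with replicate 2 above all other libraries. bZIP40, described as bZIP transcription factor 11, was at 149, 191 and 195 TPM at 0 h and at 146, 54.8 and 168 TPM at 48 h, with replicate 2 below all others. The aspartate aminotransferase gene AspAT was at 4.83, 2.72 and 3.74 TPM at 0 h and at 2.52, 10.3 and 2.07 TPM at 48 h. The glutamate dehydrogenase genes went the other way, with GDH1 at 241, 309 and 322 TPM and then at 387, 163 and 349 TPM, and GDH2 at 136, 90.2 and 111 TPM and then at 129, 31.2 and 90.1 TPM.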
